A study of Mus musculus with 12 samples.

Results

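The 35 genes described here belong to glycolysis and the hypoxia response. They were taken by symbol, each matching 1 row among the 23022 genes of the expression table, and comprise 17 glycolytic enzymes, 3 transporters of glucose or lactate, 4 regulators of flux, *Hif1a* with 2 of its oxygen sensors, and 8 other *Hif1a* targets. Their RNA was measured by RNA-seq in B16-F10 cells, a melanoma line of C57BL/6 mice, carrying Cas9. The 12 libraries fall into 4 groups of 3: NTC untreated, NTC with IFNγ, DKO untreated and DKO with IFNγ. NTC cells received a control guide (written as no template control in the labels and non-targeting control in the paper), and DKO cells a paired guide against *Mbnl1* and *Mbnl2*, which encode RNA-binding proteins that act in splicing. Untreated cells are the unstimulated arm, and treated cells had 1 ng/mL of the cytokine for 24 hours. The paper edited cells of a Cas9-expressing clone and describes the edited cells as polyclonal with incomplete loss of protein, monoclonal lines being made later, and the labels do not say which were sequenced. If each genotype was sequenced from a single line, the guide and anything else that separates the NTC and DKO cells cannot be told apart. The sources used here do not say whether the replicates are separate cultures, and p-values measure only the spread between these libraries.

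Glycolysis splits glucose into pyruvate, and lactate dehydrogenase turns pyruvate into lactate, which leaves the cell through monocarboxylate transporters. Many tumor cells, melanoma cells among them, run this route at a high rate even with oxygen present. When oxygen falls, prolyl hydroxylases no longer mark the transcription factor HIF1A for destruction, and HIF1A raises transcription of most glycolytic enzymes, of kinases that keep pyruvate out of mitochondria, and of genes for blood vessel growth, acid balance and mitochondrial turnover. HIF1A is regulated largely as a protein, so the level of its RNA does not give its activity. Several steps are served by more than 1 isozyme with different kinetics or tissue use.

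The labels were checked first. *Mbnl1* measured 56.8, 57 and 55.6 TPM in untreated NTC cells against 41.3, 41.1 and 44 TPM in untreated DKO cells. *Mbnl2* was at 107, 99.2 and 101 TPM in the former and 87.2, 90.2 and 90 TPM in the latter. RNA of both targets was therefore lower in DKO cells but far from absent, and RNA does not show how much of it still encodes protein. The untargeted paralog *Mbnl3* spanned 4.56 to 6.5 TPM in NTC and 6.87 to 8.33 TPM in DKO cells. Treated cells carried the IFNγ response in both genotypes, since *Irf1*, a transcription factor that the cytokine induces, had a mean of 19.3 TPM against 8.21 in NTC and 24.4 against 12.4 in DKO, and *B2m* and *Gbp2* were called higher with IFNγ in both genotypes as well. All 7 melanocyte genes examined were expressed, with *Tyrp1* the most abundant at 3835 to 6784 TPM. Their summed level was 16647 to 17553 TPM in untreated and 18050 to 18642 TPM in treated NTC libraries. In DKO libraries it was 11124 to 11452 TPM without and 12319 to 12414 TPM with IFNγ. Pigment cell RNA thus moved with genotype and, less, with IFNγ, although *Sox10* was called lower with IFNγ in NTC cells. Its part in the differences below was not tested. The fibroblast genes summed to 1.63 to 2.7 TPM in NTC and 3.38 to 4.24 TPM in DKO libraries, the endothelial genes to at most 0.914 TPM, the epithelial genes to 0.434 to 1.05 TPM, all of it *Cdh1*, and the leukocyte genes to 0 apart from 1.33 TPM of *Itgam* in 1 library. *Ptprc*, *Cd3e*, *Cd14*, *Dcn*, *Cdh5*, *Kdr*, *Epcam*, *Krt8* and *Krt18*, which define other cell types, were at 0 in every library. In bulk RNA, fewer cells that express a gene and less RNA per cell cannot be told apart.

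In untreated NTC cells some of the glycolytic enzymes were among the most abundant RNAs. TPM (a share of all transcripts, scaled to a fixed total) are scaled by gene length, so levels of different genes can be set side by side, and 5 of the 35 genes stood among the 20 highest of all listed genes. These were *Gapdh* with a mean of 5339 TPM ± 645 (SD, n = 3), *Eno1* with 4767 ± 374, *Pkm* with 4036 ± 111, *Aldoa* with 3989 ± 36.3 and *Ldha* with 3815 ± 144. The first 2 did not differ beyond their spread, and neither did *Pkm* and *Aldoa*. *Tpi1*, *Pgk1* and *Gpi1* followed at 2417, 2006 and 1078 TPM, so that 8 of the 35 had a mean above 1000 TPM. Another 11 lay between 100 and 1000 TPM, 14 between 10 and 100, and only *Egln3* at 4.87 ± 0.181 and *Pfkfb4* at 3.89 ± 0.562 lay below 10. All 35 passed the filter of at least 1 TPM in at least 3 libraries, as did 11663 of the 23022 listed genes.

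For several steps a single isozyme carried nearly all of the RNA. In untreated NTC cells *Aldoa* made up 98.3% of the summed TPM of *Aldoa* and *Aldoc*. *Eno1* made up 99.6% of that of *Eno1* and *Eno2*, and *Ldha* 97% of that of *Ldha* and *Ldhb*. The enolase gene *Eno3*, left out of this sum, had a mean of 18.3 TPM in these cells. Phosphofructokinase was shared by *Pfkl* (55.1%), *Pfkp* (37.5%) and *Pfkm* (7.4%), and hexokinase by *Hk2* (60.4%) and *Hk1* (39.6%). Of the summed TPM of the oxygen-sensing prolyl hydroxylases *Egln1* and *Egln3*, *Egln1* made up 95.4%. The summed TPM of the 17 enzymes was 28531 ± 1176 in untreated NTC, 27066 ± 1154 in treated NTC, 26105 ± 1092 in untreated DKO and 26354 ± 1576 in treated DKO cells (SD, n = 3 each). The libraries of the 4 groups overlapped in this sum apart from untreated NTC against untreated DKO, where the lowest NTC value was 27380 and the highest DKO value 27363. Those sums were 2.94% to 3.5% of all listed TPM. As such shares the untreated groups overlapped too, with 3.18% to 3.5% in NTC and 3.07% to 3.33% in DKO libraries. The ratio of DKO to NTC means was 0.915 without IFNγ and 0.974 with it, and the latter went to 1.03 when each library was scaled to the same total.

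The 35 genes differed in how closely replicates resembled each other. The median residual SD on the log2(TPM + 1) scale was 0.0589 over the 35 genes and 0.0911 over all tested genes. *Pgam1*, the phosphoglycerate mutase, had the widest spread with 0.494, above 98.8% of tested genes by rank, and *Gapdh* had 0.23, above 94% of them. *Gapdh* ranged from 3391 to 5185 TPM within the treated NTC group alone, and *Pgam1* from 77.1 to 166 TPM within untreated DKO. Parts of both genes recur elsewhere in the genome. A share of 36.2% of the 50-base stretches in annotated *Pgam1* transcripts, and 25.1% of those of *Gapdh*, also occurs in transcripts of other genes, and for listed genes alone these shares were 0% and 15.9%. Whether shared reads bear on the spread was not tested. The share over all other genes was 53.9% for *Pgk1*, 47.2% for *Bnip3*, 26% for *Eno1* and 25.8% for *Pkm*, which had narrower spreads. It was 0 for *Slc16a3*, *Hk2*, *Pdk1*, *Adm* and *Kdm3a*.

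**Figure D1:**
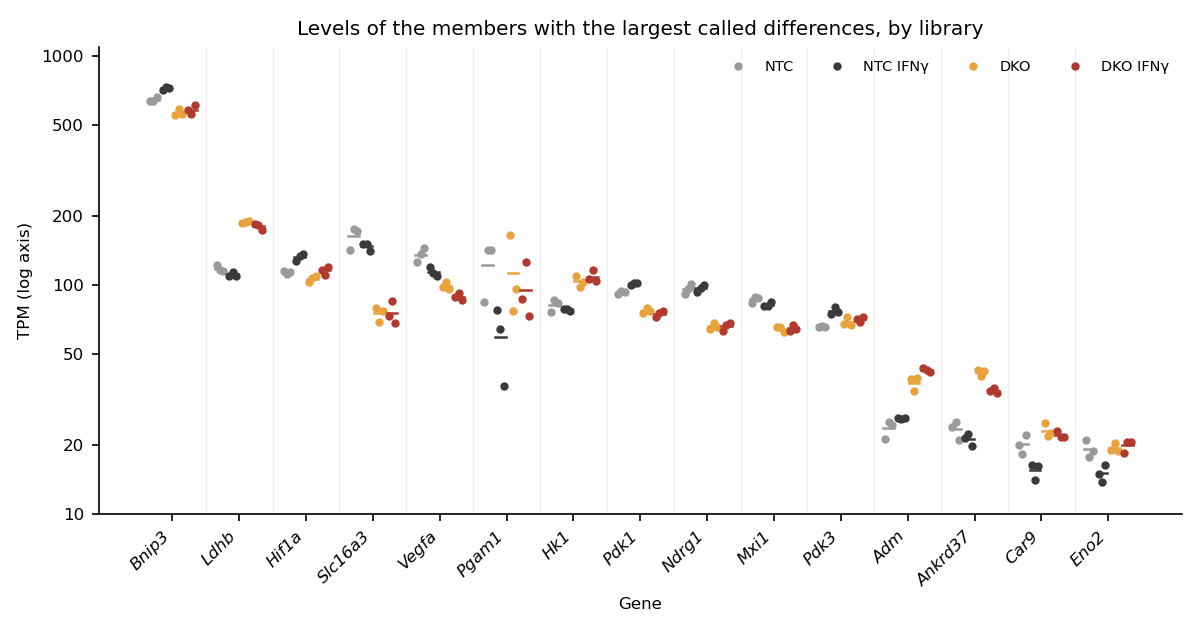
TPM (vertical, log axis) of the 15 genes named with a value in every library, in NTC and DKO cells with and without IFNγ; each point is 1 library, each short line a group mean of 3. DKO points lie below all NTC points for *Slc16a3* (68 to 85.6 against 141 to 176 TPM) and above them for *Ldhb*, *Adm* and *Ankrd37*, while the points of *Pgam1* scatter within every group.

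The question put to the genotype comparison is whether cells with the paired guide differ from control cells in this metabolic program, and it was asked separately without and with IFNγ, on separate libraries. The lactate exporter *Slc16a3* was at 0.46 times its NTC level without IFNγ and 0.511 times with it. Among the hypoxia targets *Ndrg1*, *Vegfa* and *Mxi1* were lower but *Ankrd37* and *Adm* higher, and the enzymes *Ldhb* and *Hk1* were higher. In untreated cells 19 of the 35 genes passed an adjusted p of 0.05 (limma on log2(TPM + 1), Benjamini-Hochberg over all genes), 14 lower and 5 higher in DKO. Among all 11663 tested genes 36.4% passed, 19.4% lower and 17% higher. The median log2 difference was −0.13 for the 35 genes and −0.01 for all tested genes. With IFNγ 20 of the 35 passed, 13 lower and 7 higher, where 43.3% of all tested genes passed, 23.9% lower and 19.5% higher, and the medians were −0.10 and −0.01. Lower calls thus made up 40% and 37.1% of the 35 genes, and higher calls 14.3% and 20%.

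Of these, 15 genes were called in both comparisons, 78.9% of those called without IFNγ and 75% of those called with it. All 15 had the same direction in both, 11 lower and 4 higher. The same overlap was not measured over all tested genes, so these shares have no background value and are a description only. *Aldoa*, *Aldoc*, *Kdm3a* and *Pfkl* were called only without IFNγ and *Car9*, *Eno2*, *Gpi1*, *Hif1a* and *Pdk3* only with it, but no gene among the 35 passed the test of the difference between the IFNγ responses, which is also the test of whether the genotype difference changed with IFNγ. The split between higher and lower calls depended on the kind of scaling. Over all genes, 46.67% of the calls without IFNγ and 44.94% of those with it were higher in DKO, and these shares became 60.65% and 65.27% when each library was scaled to the same total over the listed genes, but 48.57% and 48.37% under median-ratio scaling. The listed genes summed to 805782 to 827191 TPM in DKO and to 844185 to 874612 TPM in NTC libraries. With the same total 10 of the 35 genes were lower and 7 higher without IFNγ, and 10 lower and 8 higher with it, and under median-ratio scaling 14 were lower and 5 higher, and 12 lower and 7 higher.

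**Figure D2:**
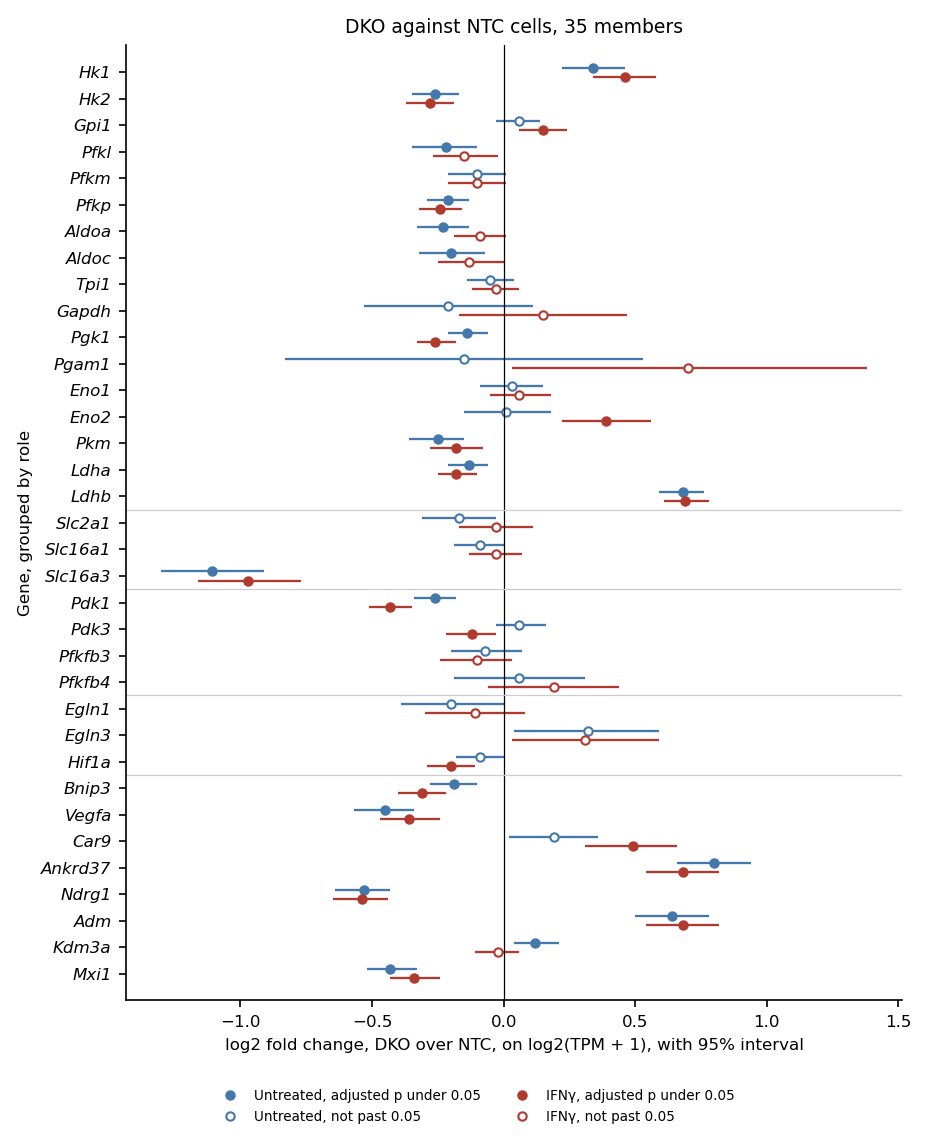
Log2 difference of DKO from NTC (horizontal, on log2(TPM + 1), with 95% interval) for the 35 genes grouped by role, without IFNγ (blue) and with it (red); filled points passed an adjusted p of 0.05. *Slc16a3* lies farthest to the left at −1.11 and −0.97, *Ankrd37*, *Ldhb* and *Adm* lie between 0.64 and 0.80, and *Pgam1* and *Gapdh* have the widest intervals.

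Of the 35 genes the largest genotype difference was that of *Slc16a3*, which encodes MCT4, the transporter through which highly glycolytic cells export lactate (GRCm38 chr11:120948480-120960868, plus strand). It was at 142, 176 and 172 TPM in untreated NTC, 151, 152 and 141 in treated NTC, 79.2, 69.2 and 77.2 in untreated DKO, and 73.6, 85.6 and 68 in treated DKO libraries. The highest DKO value thus lay far below the lowest NTC value. The log2 difference was −1.11 without IFNγ (SE 0.0895, adjusted p = 1.09e-06), −0.97 under IFNγ (same SE, adjusted p = 3.08e-06), and over the 19 alternatives it stayed between −1.20 and −1.05 and between −1.11 and −0.88. *Slc16a1*, which encodes MCT1, the transporter that carries lactate both ways, stood at 58.3 to 59.3 TPM in untreated NTC and 54.2 to 55.9 TPM in untreated DKO libraries and did not pass in either genotype comparison (−0.09, 95% interval −0.19 to 0.00, and −0.03, −0.13 to 0.07). The former passed without DKO IFNγ replicate 2 (adjusted p = 0.0499) or with a GC content and length trend taken out (0.0492), the adjusted p ranging from 0.0492 to 0.424 over the alternatives. The share of *Slc16a3* in the summed TPM of the pair was accordingly 73.5% ± 2.49 in untreated NTC and 57.8% ± 1.76 in untreated DKO (SD, n = 3 each, exact two-sided permutation p = 0.1, the smallest that 3 against 3 libraries allow). With IFNγ it was 69.6% ± 0.709 and 54.3% ± 4.41, again without overlap. *Slc2a1*, the main glucose importer of most tumor cells, ranged from 106 to 130 TPM over all libraries and was not called, with differences of −0.17 (95% interval −0.31 to −0.03, adjusted p = 0.0574) and −0.03 (−0.17 to 0.11). Its difference in untreated cells passed without NTC untreated replicate 1, DKO untreated replicate 1 or DKO IFNγ replicate 2 or 3 (adjusted p = 0.0207, 0.0406, 0.0264 and 0.0461). It also passed once the GC content and length trend was taken out (−0.18, adjusted p = 0.00842, range over the alternatives 0.00842 to 0.215).

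The promoters of the 4 genes with the largest genotype differences, averaged over both comparisons and with a promoter in the table used, are shown because these genes moved in both directions. HIF1A with its partner binds a core of ACGTG or GCGTG, and 34 of the 35 genes had a RefSeq promoter (GRCm38.p6), in 52 windows; *Ndrg1* had none. Each sequence is the 250 bases before the annotated start, 5′ to 3′ on the strand of the gene, with ACGTG and GCGTG on either strand in capitals (CACGT and CACGC are their reverse complements). *Slc16a3* is from chr11:120948817-120949066 on the plus strand, *Ankrd37* from chr8:45999851-46000100 on the minus strand, *Ldhb* from chr6:142507958-142508207 on the minus strand and *Adm* from chr7:110627407-110627656 on the plus strand. In GENCODE M21 the last 14 bases for *Slc16a3* and the last 17 for *Ankrd37* lie in an annotated exon, and the other 2 windows hold none, while opposite-strand transcripts of *Lrp2bp* and *Gm28863* cross the windows of *Ankrd37* and *Adm*. Transcripts of *Slc16a3* and *Ankrd37* themselves also cross their windows, which lie inside the GENCODE spans of these genes, so the RefSeq starts used are not their outermost ones.
Slc16a3: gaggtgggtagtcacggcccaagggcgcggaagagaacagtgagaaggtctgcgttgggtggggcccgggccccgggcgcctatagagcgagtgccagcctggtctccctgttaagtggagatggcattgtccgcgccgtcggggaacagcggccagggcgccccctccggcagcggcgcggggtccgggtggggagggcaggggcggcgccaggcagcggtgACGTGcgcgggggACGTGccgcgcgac
Ankrd37: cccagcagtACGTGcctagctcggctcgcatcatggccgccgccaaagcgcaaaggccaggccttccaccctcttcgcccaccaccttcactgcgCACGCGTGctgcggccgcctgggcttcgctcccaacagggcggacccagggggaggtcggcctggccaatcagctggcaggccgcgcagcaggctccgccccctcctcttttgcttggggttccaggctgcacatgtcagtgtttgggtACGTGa
Ldhb: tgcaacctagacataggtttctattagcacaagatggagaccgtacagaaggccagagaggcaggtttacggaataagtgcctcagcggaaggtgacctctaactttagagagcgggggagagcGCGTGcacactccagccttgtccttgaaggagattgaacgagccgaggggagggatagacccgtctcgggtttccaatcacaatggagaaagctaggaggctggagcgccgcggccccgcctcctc
Adm: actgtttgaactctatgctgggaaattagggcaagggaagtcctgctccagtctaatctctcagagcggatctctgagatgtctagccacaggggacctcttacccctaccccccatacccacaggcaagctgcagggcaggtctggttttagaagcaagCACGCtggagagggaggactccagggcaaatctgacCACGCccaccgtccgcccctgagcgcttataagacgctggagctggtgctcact
*Slc16a3* held ACGTG at 2 places, beginning 27 and 14 bases before the start. *Ankrd37* held it 241 and 6 bases before the start and GCGTG on both strands from 155 to 148 bases before it, *Ldhb* held GCGTG 126 bases before the start, and *Adm* held GCGTG on the opposite strand 90 and 54 bases before it. ACGTG on either strand was in at least 1 window of 20 of the 34 genes, 58.8%, and in 18.5% of all genes of the promoter table. GCGTG was in 22 of them, 64.7%, beside 30.9% of all genes. The E-box CACGTG, which contains ACGTG, was in 6 of them, 17.6%, beside 6.86%. A match is a description of the letters and not a site, and genes with more windows have more chances to hold one.

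Without IFNγ 8 of the 17 glycolytic enzymes were called lower in DKO and 2 higher, and with it 5 were called lower and 4 higher. These were 47.1% and 11.8%, then 29.4% and 23.5%, beside 19.4% and 17%, then 23.9% and 19.5%, of all tested genes. With the same total 4 were lower and 2 higher, then 3 lower and 4 higher, while median-ratio scaling left the counts as they were. *Ldhb*, the lactate dehydrogenase subunit that favors the turn of lactate back to pyruvate (chr6:142490249-142507957, minus strand), was at 122, 117 and 115 TPM in untreated NTC, 110, 114 and 110 in treated NTC, 187, 189 and 190 in untreated DKO, and 185, 184 and 174 in treated DKO libraries. The groups did not overlap between genotypes, and the log2 difference was 0.68 (SE 0.0387, adjusted p = 4.67e-08) without IFNγ and 0.69 (SE 0.0387, adjusted p = 4.05e-08) with it. *Ldha*, the subunit that favors lactate production, spanned 3650 to 4088 TPM in NTC and 3471 to 3612 TPM in DKO cells, with differences of −0.13 (adjusted p = 0.00937) and −0.18 (adjusted p = 0.0011), and neither passed when libraries were scaled to the same total (−0.08, adjusted p = 0.112, and −0.09, adjusted p = 0.0643). The former also missed the threshold without NTC untreated replicate 3 (adjusted p = 0.0502), and over the alternatives the ranges were 0.00336 to 0.112 and 0.000539 to 0.0643. *Ldhb* therefore made up 5.14% ± 0.0418 of the pair in untreated DKO and 3% ± 0.207 in untreated NTC cells (SD, n = 3 each, exact permutation p = 0.1), a small share in each. Of the 50-base stretches of *Ldhb*, 21% also occur in a transcript of 1 other gene.

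Hexokinase traps glucose in the cell as glucose phosphate, and its isozymes differed in opposite directions. *Hk1*, the widely expressed isozyme, was at 76.5, 85.8 and 83.4 TPM in untreated NTC, 78.9, 78.9 and 77.4 in treated NTC, 110, 98.3 and 103 in untreated DKO, and 106, 116 and 104 in treated DKO libraries. All DKO values exceeded all NTC values, with log2 differences of 0.34 (SE 0.057, adjusted p = 0.00045) and 0.46 (SE 0.057, adjusted p = 3.33e-05). *Hk2*, the inducible isozyme and a HIF1A target, ranged from 121 to 141 TPM in NTC and from 102 to 119 TPM in DKO libraries, lower by −0.26 (adjusted p = 0.000362) and −0.28 (adjusted p = 0.000188). Both kept these calls in all 19 alternatives. *Hk1* made up 39.6% ± 0.768 of hexokinase TPM in untreated NTC and 50% ± 1.5 in untreated DKO, and at 36.4% ± 0.852 and 49% ± 0.78 with IFNγ (SD, n = 3 each, exact permutation p = 0.1 in both comparisons).

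**Figure D3:**
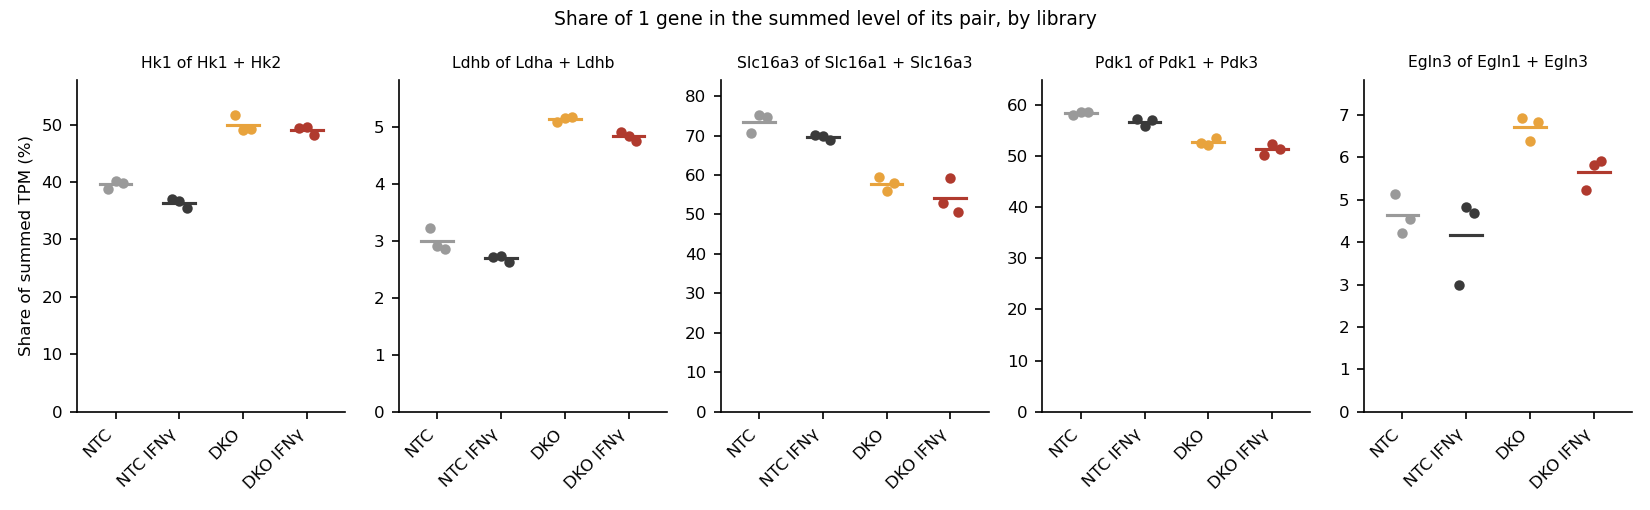
Share (%, from 0) of 1 gene in the summed TPM of its pair, in NTC and DKO cells with and without IFNγ; points are libraries and lines group means of 3. The DKO libraries do not overlap the NTC libraries in any of the 5 panels, with *Hk1* near 50% against 36.4% to 39.6% and *Slc16a3* at 54.3% to 57.8% against 69.6% to 73.5% (group means).

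*Pfkp*, the platelet-type phosphofructokinase, was lower by −0.21 and −0.24 (adjusted p = 0.000625 and 0.000225), and *Pgk1*, phosphoglycerate kinase, by −0.14 and −0.26 (adjusted p = 0.00624 and 6.04e-05), the former missing the threshold with scaling to the same total (adjusted p = 0.0707, range 0.00506 to 0.0707). *Pkm*, pyruvate kinase, had differences of −0.25 and −0.18 (adjusted p = 0.000991 and 0.00833), the latter lost with that scaling (−0.09, adjusted p = 0.182, range 0.000177 to 0.182). *Aldoa* ranged from 3949 to 4020 TPM in untreated NTC and from 3310 to 3519 TPM in untreated DKO libraries, a difference of −0.23 (adjusted p = 0.00191), and did not pass with IFNγ (−0.09, adjusted p = 0.119), except without DKO IFNγ replicate 2 (adjusted p = 0.0137) or with the GC content and length trend taken out (0.000117, the lowest of a range up to 0.93). *Pfkl*, the liver-type phosphofructokinase, and *Aldoc* were called lower in untreated cells at −0.22 and −0.20, and both calls were lost with scaling to the same total (adjusted p = 0.0528 and 0.0832, ranges 0.000191 to 0.0528 and 0.0087 to 0.0888). *Aldoc* was also lost without NTC untreated replicate 1 or 3 or DKO untreated replicate 2 (adjusted p = 0.0888, 0.0504 and 0.0875). With IFNγ, where neither was called, *Pfkl* passed without NTC untreated replicate 1 or DKO IFNγ replicate 2 (adjusted p = 0.0436 and 0.00493) and with the replicate block (0.0456), and *Aldoc* without DKO IFNγ replicate 2 (0.0218). Both also passed once the GC content and length trend was taken out (−0.26, adjusted p = 0.000141, range 0.000141 to 0.488, and −0.15, adjusted p = 0.0476, range 0.0218 to 0.625). *Gpi1*, which interconverts glucose and fructose phosphates, was at 997 to 1045 TPM in treated NTC and 1087 to 1186 TPM in treated DKO libraries, higher by 0.15 (adjusted p = 0.00915). The shares of the 3 phosphofructokinase genes differed by at most 1.62 percentage points between genotypes.

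*Eno2*, a minor enolase isozyme best known from neurons, was at 21.1, 17.7 and 18.8 TPM in untreated NTC, 14.9, 13.7 and 16.4 in treated NTC, 19, 20.4 and 18.8 in untreated DKO, and 18.5, 20.5 and 20.7 in treated DKO libraries. The treated NTC libraries were the lowest 3 of the 12. The genotype difference was 0.01 (adjusted p = 0.906) without IFNγ and 0.39 (SE 0.078, adjusted p = 0.00133) with it. *Eno1*, *Tpi1*, *Pfkm*, *Gapdh* and *Pgam1* were not called in either genotype comparison. Their levels overlapped between genotypes except for *Pfkm* without IFNγ, at 39.5 to 42.1 TPM in NTC and 37.2 to 38.4 TPM in DKO libraries. For *Tpi1* the 95% intervals were −0.14 to 0.04 and −0.12 to 0.06, and for *Gapdh* they were wider, −0.53 to 0.11 and −0.17 to 0.47. With IFNγ, *Pgam1* and *Pfkm* passed without NTC IFNγ replicate 1 (0.93, adjusted p = 0.043, range 0.043 to 0.343, and −0.14, adjusted p = 0.0475). *Pfkm* also passed once the GC content and length trend was taken out (−0.17, adjusted p = 0.00909, range 0.00909 to 0.833).

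Regulators of flux decide how much pyruvate enters mitochondria and how fast phosphofructokinase runs. *Pdk1*, a HIF1A-induced kinase that inactivates pyruvate dehydrogenase (chr2:71873224-71903858, plus strand), was at 91, 94.1 and 93.1 TPM in untreated NTC, 99.9, 102 and 102 in treated NTC, 75.3, 79.1 and 77.4 in untreated DKO, and 72.3, 75.5 and 76.7 in treated DKO libraries. It was lower in every DKO library, by −0.26 (SE 0.0387, adjusted p = 0.000176) without IFNγ and −0.43 (SE 0.0387, adjusted p = 2.35e-06) with it. *Pdk3*, a related kinase, was at 65.9, 66.4 and 65.8 TPM in untreated NTC, 74.7, 80.3 and 76.6 in treated NTC, 67.8, 72.5 and 66.8 in untreated DKO, and 71.3, 68.8 and 72.4 in treated DKO libraries. Its call with IFNγ, −0.12 (adjusted p = 0.0392), was kept in only 8 of 19 alternatives, over which the adjusted p ran from 0.0337 to 0.521, and the direction turned to 0.09 once the GC content and length trend was taken out. It was lost, among others, without NTC untreated replicate 2 or 3, NTC IFNγ replicate 2 or 3, or DKO IFNγ replicate 1 or 2 (adjusted p = 0.0504, 0.0537, 0.148, 0.0713, 0.0737 and 0.114). *Pdk1* made up 58.4% ± 0.342 of the pair in untreated NTC and 52.8% ± 0.757 in untreated DKO cells (SD, n = 3 each, exact permutation p = 0.1). *Pfkfb3* and *Pfkfb4*, which make and remove the activator of phosphofructokinase, ranged from 10.7 to 12.9 and from 3.24 to 5.14 TPM and were not called.

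*Hif1a* itself (chr12:73901375-73947530, plus strand) was at 115, 112 and 114 TPM in untreated NTC, 128, 134 and 137 in treated NTC, 103, 107 and 110 in untreated DKO, and 117, 111 and 120 in treated DKO libraries. The treated NTC libraries were the highest 3 and the untreated DKO libraries the lowest 3. The genotype difference was −0.09 (adjusted p = 0.108) without IFNγ and −0.20 (SE 0.0421, adjusted p = 0.00202) with it, the latter lost once the GC content and length trend was taken out (−0.06, adjusted p = 0.146, range 0.00152 to 0.146). Of the prolyl hydroxylases that mark HIF1A for degradation, *Egln1* ranged from 84.8 to 111 TPM and was not called, but passed in untreated cells without NTC untreated replicate 1 (−0.31, adjusted p = 0.0101). It also passed once the GC content and length trend was taken out, at −0.25 without IFNγ (adjusted p = 0.0191, range 0.0101 to 0.339) and −0.27 with it (adjusted p = 0.0116, range 0.0116 to 0.852). *Egln3*, itself a HIF1A target, was at 3.25 to 5.34 TPM in NTC and 4.8 to 6.94 TPM in DKO libraries, with differences of 0.32 (SE 0.128, adjusted p = 0.0707) and 0.31 (SE 0.128, adjusted p = 0.0659). Its share of the pair was 4.63% ± 0.464 in untreated NTC and 6.71% ± 0.292 in untreated DKO cells (SD, n = 3 each, exact permutation p = 0.1). *Egln3* passed in both comparisons when libraries were scaled to the same total (adjusted p = 0.0427 and 0.0285, ranges 0.0167 to 0.206 and 0.0137 to 0.286). It also passed in untreated cells without NTC IFNγ replicate 1 or 2 (0.025 and 0.0398) or in a fit of only the 6 libraries compared (0.0167), and in treated cells without NTC IFNγ replicate 2 or DKO IFNγ replicate 1 (0.0137 and 0.0415).

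Of the other *Hif1a* targets 7 of 8 were called in each genotype comparison, 4 lower and 3 higher each time, beside 36.4% and 43.3% of all tested genes. On the lower side, *Ndrg1*, a stress-response gene (chr15:66929318-66969640, minus strand), was at 91.1, 96.3 and 101 TPM in untreated NTC, 93.4, 97.3 and 100 in treated NTC, 64.6, 68.2 and 65.4 in untreated DKO, and 63.3, 67.1 and 68 in treated DKO libraries. The DKO libraries all lay below the NTC libraries, by −0.53 (SE 0.049, adjusted p = 3.11e-06) and −0.54 (SE 0.049, adjusted p = 2.38e-06). *Vegfa*, the growth factor for blood vessels, was at 126, 137 and 145 TPM in untreated NTC, 120, 113 and 110 in treated NTC, 97.7, 103 and 96.1 in untreated DKO, and 88.5, 92.1 and 86.3 in treated DKO libraries, lower by −0.45 (adjusted p = 2.87e-05) and −0.36 (adjusted p = 0.000182). *Mxi1*, a Myc antagonist that HIF1A induces, was at 83.2, 89.1 and 88.2 TPM in untreated NTC, 81.4, 80.8 and 84.5 in treated NTC, 65.6, 65.6 and 62.1 in untreated DKO, and 63.1, 67.2 and 64.3 in treated DKO libraries. It was lower by −0.43 (adjusted p = 8.96e-06) and −0.34 (adjusted p = 5.33e-05). *Bnip3*, a receptor for the removal of mitochondria, was at 641, 636 and 665 TPM in untreated NTC, 714, 737 and 729 in treated NTC, 554, 589 and 558 in untreated DKO, and 581, 561 and 615 in treated DKO libraries. It was lower by −0.19 (adjusted p = 0.00229) and −0.31 (adjusted p = 5.16e-05), with the share of common sequence given above. All 8 of these calls held in the 19 alternatives.

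On the higher side stood *Ankrd37*, *Adm* and, with IFNγ, *Car9*. *Ankrd37*, which encodes an ankyrin repeat protein induced by hypoxia (chr8:45996902-46005707, minus strand), was at 24, 25.2 and 21.1 TPM in untreated NTC, 21.4, 22.3 and 19.8 in treated NTC, 42.6, 40 and 42.1 in untreated DKO, and 34.5, 35.5 and 33.7 in treated DKO libraries. It was higher by 0.80 (SE 0.0653, adjusted p = 1.09e-06) and 0.68 (SE 0.0653, adjusted p = 3.71e-06). The libraries are unstranded and *Ankrd37* overlaps 2 listed genes on the other strand. Of these, *Ufsp2* had means of 56.5 TPM in untreated NTC and 54 in untreated DKO cells and *Lrp2bp* of 0.715 and 1.25 TPM. *Lrp2bp* was called higher in DKO only without IFNγ (0.39, adjusted p = 0.0292) and *Ufsp2* lower only with it (−0.24, adjusted p = 0.0124). Of the 50-base stretches of *Ankrd37*, 16.5% also occur in *Lrp2bp* transcripts, and their part in its difference was not tested. Reads from the strands cannot be told apart. The same limit holds for *Pfkp* with *Pitrm1* (at most 83.2 TPM), *Pfkm* with *Senp1* (24.1) and *Tpi1* with *Spsb2* (18.6). It also holds for *Gapdh* with *Iffo1* (10.1), *Mxi1* with *Gm10197* (2.45) and *Aldoa* with *Fam57b* (0.614). *Adm*, the gene of the vasodilator peptide adrenomedullin (chr7:110627661-110629820, plus strand), was at 21.3, 25.1 and 24.4 TPM in untreated NTC, 26.2, 26 and 26.2 in treated NTC, 38.7, 34.3 and 39.1 in untreated DKO, and 43.4, 42.5 and 41.6 in treated DKO libraries. No DKO library overlapped an NTC library, and the differences were 0.64 (SE 0.0643, adjusted p = 6.71e-06) and 0.68 (SE 0.0643, adjusted p = 3.4e-06). *Car9*, a carbonic anhydrase of the cell surface that helps to balance acid, was at 20, 18.3 and 22.2 TPM in untreated NTC, 16.4, 14 and 16.2 in treated NTC, 24.9, 21.8 and 22.6 in untreated DKO, and 23, 21.7 and 21.6 in treated DKO libraries. Untreated groups overlapped (0.19, adjusted p = 0.078, but 0.0318 without NTC untreated replicate 3, 0.0307 with the same total and 0.0429 with the replicate block, range 0.0307 to 0.277) and treated groups did not (0.49, SE 0.0796, adjusted p = 0.000321). *Kdm3a*, a histone demethylase, ranged from 65.5 to 67.9 TPM in untreated NTC and from 71.3 to 74.1 TPM in untreated DKO libraries. Its difference of 0.12 (adjusted p = 0.0274) was lost without NTC untreated replicate 1 or 2 or DKO untreated replicate 2 or 3 (adjusted p = 0.0658, 0.0864, 0.0601 and 0.103, range 0.00343 to 0.103), and with IFNγ it was −0.02 (adjusted p = 0.7).

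The second question was how the cytokine itself moved these genes in control cells. In NTC cells *Hif1a*, *Pdk3* and *Bnip3* were called slightly higher with IFNγ and *Vegfa*, *Car9*, *Eno2* and *Pgam1* lower, 7 of the 35 genes. None of the 7 calls held in every alternative. Among all tested genes 12.1% passed, 7.31% higher and 4.78% lower, a count of 1411 that went from 317 to 2023 when 1 library was left out and to 510 once the GC content and length trend was taken out. The 7 of the 35 became 1 to 10 and 1 in the same settings. The median log2 difference was −0.01 for the 35 genes and 0.02 for all. *Hif1a* was higher by 0.22 (SE 0.0421, adjusted p = 0.0096), *Pdk3* by 0.22 (SE 0.0444, adjusted p = 0.0119) and *Bnip3* by 0.17 (SE 0.0404, adjusted p = 0.023). *Car9* was lower by −0.36 (SE 0.0796, adjusted p = 0.017), *Eno2* by −0.34 (SE 0.078, adjusted p = 0.0184) and *Vegfa* by −0.25 (SE 0.0541, adjusted p = 0.0156), and for each of these 6 genes the values given above did not overlap between untreated and treated NTC libraries. *Pgam1* was at 84.4, 142 and 142 TPM in untreated NTC, 77.7, 64.1 and 36.3 in treated NTC, 166, 77.1 and 96.5 in untreated DKO, and 86.7, 126 and 73.1 in treated DKO libraries. Its log2 difference of −1.06 (SE 0.314, adjusted p = 0.045) was the largest of the 7 and the least precise, with a 95% interval from −1.74 to −0.38.

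These calls were less secure than the genotype calls. None of the 7 passed once the GC content and length trend was taken out, where the adjusted p ran from 0.0505 for *Vegfa* to 0.431 for *Pdk3*. *Hif1a* was the only call of the 7 to hold without each of the 12 libraries. Over the alternatives the adjusted p ran from 0.00402 to 0.0912 for *Hif1a*, 0.00714 to 0.431 for *Pdk3*, 0.011 to 0.0836 for *Bnip3*, 0.00943 to 0.0665 for *Vegfa*, 0.0127 to 0.0701 for *Car9*, 0.0148 to 0.106 for *Eno2* and 0.0288 to 0.16 for *Pgam1*. *Pgam1* was lost without NTC untreated replicate 2 or 3, NTC IFNγ replicate 2 or 3, DKO untreated replicate 3 or DKO IFNγ replicate 1 (adjusted p = 0.14, 0.135, 0.0924, 0.16, 0.059 and 0.0609), as well as with no filter (0.0874) and with the replicate block (0.0544). *Bnip3* was lost without any NTC untreated library (adjusted p = 0.0514, 0.0836 and 0.0512) or without NTC IFNγ replicate 2 or 3 (0.0828 and 0.0744), and *Vegfa* without NTC untreated replicate 2 or 3 or NTC IFNγ replicate 2 or 3 (adjusted p = 0.0569, 0.0662, 0.0573 and 0.0665). *Eno2* was lost without NTC untreated replicate 1 or 3 or NTC IFNγ replicate 2 (adjusted p = 0.0514, 0.0553 and 0.0759), *Car9* without NTC untreated replicate 3 or NTC IFNγ replicate 2 (adjusted p = 0.0701 and 0.0689), and *Pdk3* without NTC IFNγ replicate 2 (adjusted p = 0.0526). Over all genes the share of higher calls, 60.45%, became 45.11% when each library had the same total and 48.79% under median-ratio scaling, while the 35 genes kept 3 higher and 4 lower calls with either. *Hk2*, *Pdk1* and *Slc16a1*, not called, passed without DKO IFNγ replicate 2 (adjusted p = 0.0263, 0.0389 and 0.0217) or 3 (0.044, 0.0366 and 0.0429). *Hk2* also passed with the trend taken out (0.0398) and *Slc16a1* in a fit of only the 6 libraries compared (0.0491). For the 3 genes the adjusted p ranged over the alternatives from 0.0263 to 0.161, 0.0366 to 0.414 and 0.0217 to 0.542.

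**Figure D4:**
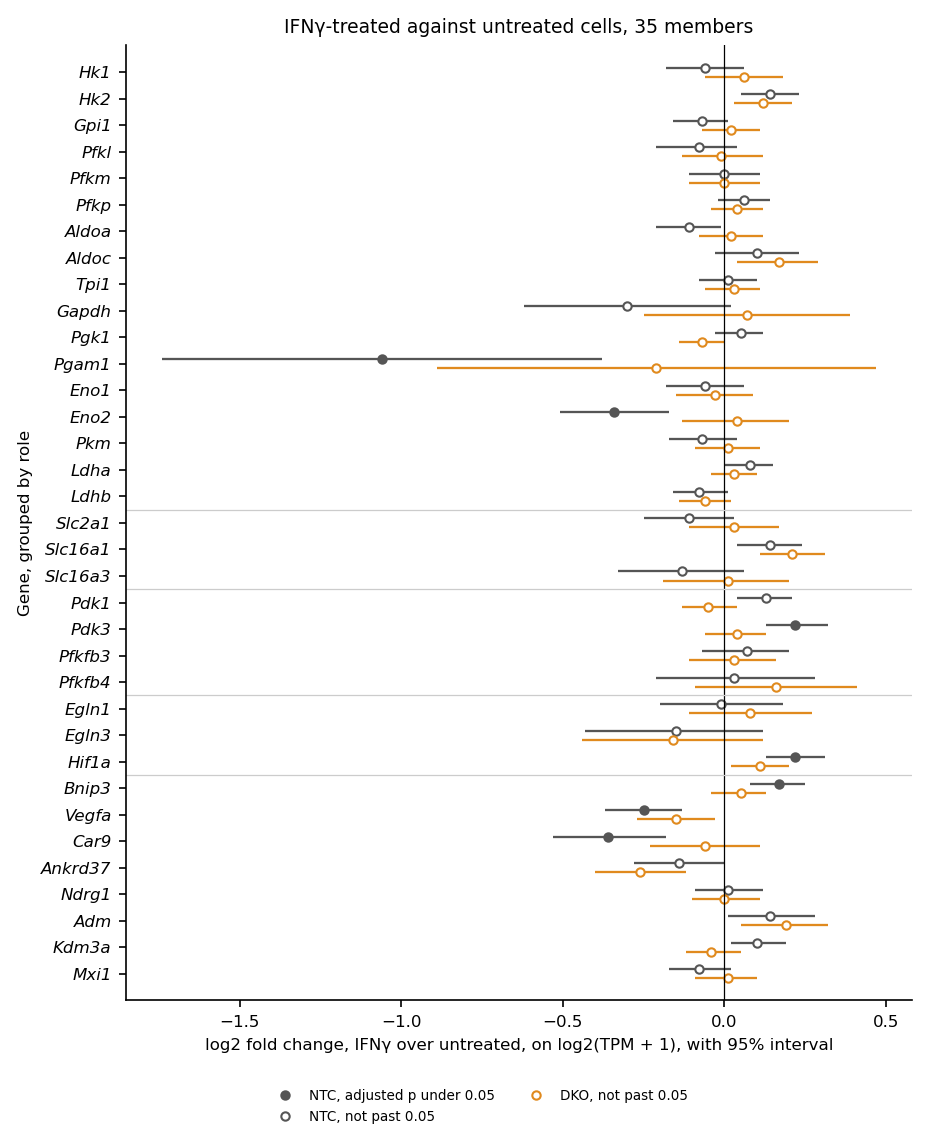
Log2 difference of IFNγ-treated from untreated cells (horizontal, on log2(TPM + 1), with 95% interval) for the 35 genes grouped by role, in NTC (grey) and DKO cells (orange); filled points passed an adjusted p of 0.05. The 7 filled points are all in NTC cells, *Pgam1* at −1.06 has the widest intervals, and most points lie near 0.

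In DKO cells none of the 35 genes passed with IFNγ under limma, beside 0.78% of all tested genes. An unadjusted p under 0.05 was found for 7 of the 35, beside 1119 of all 11663 tested genes. *Slc16a1* came closest, with 54.2, 54.6 and 55.9 TPM without and 65.1, 59.1 and 66.4 TPM with IFNγ, higher by 0.21 (SE 0.0459, adjusted p = 0.0644). It passed with scaling to the same total (0.21, adjusted p = 0.0292), once the GC content and length trend was taken out (0.18, adjusted p = 0.0264), and without DKO IFNγ replicate 2 (0.26, adjusted p = 0.00586, range 0.00586 to 0.308). In NTC cells its difference was 0.14 (SE 0.0459, adjusted p = 0.0646), so the values for this lactate transporter lay on the same side in both genotypes. *Ankrd37* had −0.26 (SE 0.0653, adjusted p = 0.125) in DKO cells. The test of the difference between the IFNγ responses called none of the 35, beside 0.0343% of all tested genes. Here 6 of the 35 had an unadjusted p under 0.05, beside 1340 of all 11663 tested genes. The response of *Eno2* differed by 0.38 (95% interval 0.14 to 0.61, adjusted p = 0.364), that of *Car9* by 0.29 (0.05 to 0.54, adjusted p = 0.409), that of *Pdk1* by −0.17 (−0.29 to −0.05, adjusted p = 0.364) and that of *Pdk3* by −0.19 (−0.32 to −0.05, adjusted p = 0.382). The IFNγ responses of these genes are thus not shown to differ between genotypes.

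Genes beside the 35 were followed in 5 further lists. Of the other genes of glycolysis and pyruvate use, 23 of 38 were tested, 13 being under the filter and 2 not matched by symbol. Without IFNγ 2 of them were higher in DKO and 7 lower, together 39.1% beside 36.4% of all tested genes, and with it 6 were higher and 7 lower, 56.5% beside 43.3%. *Pck2*, the mitochondrial enzyme that makes phosphoenolpyruvate, had means of 112 TPM ± 9.15 in untreated NTC and 49.5 ± 3.22 in untreated DKO cells, a log2 difference of −1.17 (SE 0.0686, adjusted p = 5.59e-08), and −1.04 (adjusted p = 1.45e-07) with IFNγ. *Pgm2*, a phosphoglucomutase, was lower by −0.30 and −0.35 (adjusted p = 3.45e-05 and 8.57e-06). *Pdhx*, a component of pyruvate dehydrogenase, was lower by −0.34 without IFNγ and −0.33 with it (adjusted p = 0.000457 and 0.000542). *Dld*, another component, was lower by −0.21 and −0.42 (adjusted p = 0.00644 and 4.01e-05). *Pgm1* and *Bpgm* were higher without IFNγ by 0.23 and 0.21 (adjusted p = 0.00377 and 0.0144), the latter lost without NTC untreated replicate 1 or DKO untreated replicate 3 (adjusted p = 0.0526 and 0.0727, range 0.00359 to 0.0727). *Pgm1* and *Bpgm* were also higher with IFNγ, by 0.20 and 0.21 (adjusted p = 0.00743 and 0.0109). With IFNγ, *Mpc1*, a subunit of the mitochondrial pyruvate carrier, *Eno3* and *Pdp2* were higher by 0.35, 0.28 and 0.25 (adjusted p = 0.0456, 0.0109 and 0.0212), the call of *Mpc1* being kept in only 7 of 19 alternatives, over which its adjusted p ran from 0.000981 to 0.198. *Eno3* was lost without NTC IFNγ replicate 3 or DKO IFNγ replicate 2 (adjusted p = 0.052 and 0.0516, range 0.000947 to 0.052), and *Pdp2* without replicate 2 of NTC IFNγ or of DKO IFNγ (adjusted p = 0.0824 and 0.054, range 0.00586 to 0.0824). With IFNγ 3 genes of this list were called higher and 2 lower in NTC cells, 21.7% beside 12.1% of all tested genes. Each of these calls was lost in at least 1 alternative. The adjusted p reached 0.135 for *Dld*, 0.103 for *Galm* and 0.16 for *Pgm2*, all higher, and 0.0936 for *Mpc1* and 0.0997 for *Pck2*, both lower.

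Of the other glucose and monocarboxylate transporters and their partners, 10 of 16 were tested. Without IFNγ 4 were higher and 2 lower in DKO cells, and with it 3 and 3, 60% each time beside 36.4% and 43.3% of all tested genes. Among calls lost in some alternative, the adjusted p reached 0.0889 for *Slc16a7* (higher) and 0.15 for *Slc2a5* (lower) without IFNγ. With it the adjusted p reached 0.341 for *Slc2a5* and 0.399 for *Emb*, both lower. The sugar transporters *Slc2a9* and *Slc2a6* had means of 2.88 TPM ± 0.252 and 8.26 ± 0.39 in untreated NTC and of 5.96 ± 0.871 and 12.8 ± 0.445 in untreated DKO cells, log2 differences of 0.84 and 0.58 (adjusted p = 4.06e-05 and 8.4e-05). Both were also higher with IFNγ, by 0.64 and 0.59 (adjusted p = 0.000303 and 5.57e-05). *Slc2a3*, a glucose transporter of high affinity, was at 12.3 ± 0.526 TPM in treated NTC and 18.6 ± 2.06 in treated DKO cells (0.55, adjusted p = 8.5e-05). Without IFNγ *Slc2a3* was higher in DKO cells by 0.22 (adjusted p = 0.0416). *Bsg*, which encodes the chaperone that both lactate transporters need to reach the cell surface, was at 1106 ± 12.1 TPM in untreated NTC and 927 ± 43.5 in untreated DKO cells, lower by −0.26 (adjusted p = 0.000146), and −0.18 with IFNγ (adjusted p = 0.00158), the latter lost with scaling to the same total (adjusted p = 0.0631, range 2.81e-05 to 0.0631). All 8 pentose phosphate genes were tested, with 1 higher and 1 lower in each genotype comparison, 25% beside the same shares. With IFNγ in NTC cells 3 of them were higher and 1 lower, 50% beside 12.1% of all tested genes, and of the tested transporters 1 was higher and 1 lower, 20%. Some of these calls were lost in at least 1 alternative, the adjusted p reaching 0.0882 for *Rpia*, 0.31 for *Rpe*, 0.627 for *Pgls* and 0.184 for *Slc2a4*. It stayed at or below 0.0214 for *G6pdx* and 0.0212 for *Emb*. The pentose phosphate gene higher in DKO cells was *G6pdx*, the entry enzyme of that route. It was also the only gene of the further lists called with IFNγ in both genotypes, from 69.8 ± 2.99 to 84.3 ± 3.24 TPM in NTC (0.27, adjusted p = 0.00321) and from 79.1 ± 0.423 to 96.2 ± 1.89 TPM in DKO cells (0.28, adjusted p = 0.00392).

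Of 46 other hypoxia pathway genes and HIF targets 33 were tested. Without IFNγ 12 of these, or 36.4%, were lower in DKO and 3, or 9.09%, higher, beside 19.4% and 17% of all tested genes. With IFNγ 15 were lower and 5 higher, or 45.5% and 15.2%, beside 23.9% and 19.5%, and the split over all genes turned with scaling as given above. With IFNγ in NTC cells 5 were higher and 2 lower, 21.2% beside 12.1%. Both lower calls were lost in at least 1 alternative, the adjusted p reaching 0.115 for *Ddit4* and 0.257 for *Mif*. Of the 3 largest higher calls it reached 0.0571 for *Higd1a* and 0.137 for *Bhlhe41*, and stayed at or below 0.0435 for *Tfrc*. The median genotype log2 differences of the list were −0.11 and −0.10, beside −0.01 over all genes in both comparisons. *Ero1l*, an oxidase of protein folding, had means of 537 TPM ± 36.3 in untreated NTC and 358 ± 14.7 in untreated DKO cells (−0.58, adjusted p = 2.07e-05). *Stc1* and *Hmox1*, the heme oxygenase, were lower without IFNγ by −0.62 and −0.61 (adjusted p = 7.76e-05 and 2.24e-06). *Stc1* was also lower with IFNγ, by −0.40 (adjusted p = 0.0019). With IFNγ, *Higd1a*, a mitochondrial protein, had means of 711 ± 15.8 TPM in NTC and 480 ± 7.86 in DKO cells (−0.57, adjusted p = 2.67e-07). *Bhlhe41* and *Loxl2* were lower with IFNγ by −0.56 and −0.53 (adjusted p = 3.38e-06 and 8.25e-06). *Higd1a* and *Bhlhe41* were also lower without IFNγ, by −0.42 and −0.45 (adjusted p = 3.78e-06 and 2.72e-05). On the higher side, *Pgf*, a relative of *Vegfa*, had differences of 0.60 and 0.43 (adjusted p = 9.7e-05 and 0.00114). Those of *Plod1* were 0.39 and 0.41 (adjusted p = 0.000153 and 8.97e-05). The transferrin receptor *Tfrc* was higher by 0.54 without IFNγ and 0.26 with it (adjusted p = 1.56e-05 and 0.0035). *Epas1*, which encodes the related factor HIF2A, was higher by 0.38 with IFNγ (adjusted p = 0.00618). Of 12 genes of the Myc network and glucose sensing, 9 were tested, and none was lower in DKO cells while 2 were higher without IFNγ and 3 with it, 22.2% and 33.3% beside 36.4% and 43.3% of all tested genes. *Txnip*, a brake on glucose uptake that responds to glucose, was at 39.8 ± 3.4 TPM in untreated NTC and 51.2 ± 2.7 in untreated DKO cells (0.36, adjusted p = 0.000485), and higher by 0.56 with IFNγ (adjusted p = 1.16e-05).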

How the data were processed

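RNA-seq was analysed in 12 libraries, 3 for each of 4 conditions, grouped by the sample labels. Per the methods, the authors sequenced poly(A)-selected, unstranded libraries from both ends over 50 bases, ran RSEM 1.2.4 with Bowtie on a merged annotation, and gave unaligned reads to TopHat against mm10. The deposited values were taken as TPM, the unit the authors give for their expression table, although their name says counts; a scaling between libraries is not stated. TPM keep no read depth, and the spread within each group of 3 gives the precision. No 2 libraries were identical.

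Genes reaching 1 TPM in 3 or more libraries were fitted on the log2(TPM + 1) scale by limma 3.58.1 under R 4.3.3, with 1 mean per condition, a trended prior variance and two-sided tests in 5 comparisons, and Benjamini-Hochberg adjustment over all tested genes at 0.05. The fit was also run on simulated data, and no result given here rests on that outcome. A log2 difference on this scale understates the change of low genes. Shares were compared by exact permutation (scipy 1.17.1). Coordinates and shared 50-base stretches came from GENCODE M21, in which 22251 listed genes were found, and promoters from RefSeq. Python 3.11.15, numpy 2.4.6, pandas 2.3.3 and matplotlib 3.10.9 were used.

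In each comparison up to 8 of the 35 genes with the largest difference among called genes with non-overlapping groups are given in every library, and of each further list up to 3 genes per direction. Members and lists were chosen with earlier results of these data known. Alternatives were a pseudocount of 0.1, no filter, 2 scalings, only the 6 libraries compared, a replicate block, a GC content and length trend taken out, and leaving out each library.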

Additional observations from a re-analysis of the deposited data

How the results depend on the processing

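Of the genotype calls among the 35 genes, 14 of 19 without IFNγ and 16 of 20 with it held in all 19 alternatives, as did 0 of the 7 IFNγ calls in NTC cells. The count over all genes for IFNγ in NTC cells, 1411, went to 897 with no filter, to 510 after a GC content and length trend was taken out, and from 317 to 2023 leaving out 1 library. The count for the difference between the IFNγ responses, 4, went to 10 with no filter, to 2 with the replicate block, and from 0 to 7 leaving out 1 library. For the 35 genes, the 7 calls in NTC cells became 1 with the trend taken out and 1 to 10 leaving out 1 library. The 0 calls in DKO cells became 1 with scaling to the same total, 1 with the trend taken out and 0 to 1 leaving out 1 library. *Pdk3*, −0.12 between treated genotypes, reversed to 0.09 with the trend taken out. The cause was not tested for any of these. With the replicate block, whose pairing the data did not bear out (correlations of same-numbered libraries −0.179 to 0.182), 20, 20, 6 and 0 of the 35 genes were called for genotype without IFNγ, genotype with it, IFNγ in NTC and IFNγ in DKO cells. The 92 alternatives for sums and shares moved less than the spread. TPM keep no depth, so its limit for low genes is unknown.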
